A study of Mus musculus with 3 samples.

Results

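Singleton T cells are the cells of the nerve infiltrate whose T cell receptor was found in no other cell with the same pairing. They were taken from paired scTCR-Seq of CD45+ cells of sciatic nerves from neuropathic NOD.AireGW/+ mice, which carry 1 copy of the GW allele of Aire on the autoimmune-prone NOD background. There were 3 libraries and a single condition: replicates 1 and 2 each came from 1 mouse, and replicate 3 pooled 2 mice that could not be separated. Cells were kept if they had exactly 1 productive α chain (TRA) and 1 productive β chain (TRB), and a clone was the V gene, nucleotide CDR3 and J gene of both chains within a library. Members were chosen by clone size alone, as the clones of 1 cell, so every statement about clone size is a description. This gave 2113 singletons (755, 1076 and 282 in replicates 1 to 3) of 4187 cells with 1 TRA and 1 TRB, out of 6634 cells with any productive chain. The label of T cell rests on the 2 receptor chains: gene expression was not analysed here, so CD4 T cells could not be set apart from CD8 T cells. Ages of the mice are not given in the sources used here.

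A TRB chain is assembled from a V, a D and a J segment and a TRA chain from a V and a J segment. Bases are trimmed from the segment ends and others are added by terminal transferase, so the CDR3, which spans the joint and touches the peptide, differs from cell to cell. A T cell that has divided in response to its antigen leaves cells with the same receptor, whereas a receptor seen in 1 cell may come from a T cell that has not divided or from a clone that was sampled once. AIRE drives the expression of tissue antigens in the thymus, where self-reactive T cells are removed, and the GW allele impairs it dominantly.

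The range of joints is shown by the TRB with the fewest and the TRB with the most added bases in each library. Sequences are the nucleotide CDR3s of the deposited contigs, from the codon of the conserved cysteine to that of the conserved phenylalanine or tryptophan of the J gene, 5′ to 3′. Capitals mark the bases counted as added, which lay outside the matched V and J segments and any D match of at least 5 bases. Shorter stretches of D are thus in capitals too.
Replicate 1, TRBV16 with TRBJ2-3, 0 added bases: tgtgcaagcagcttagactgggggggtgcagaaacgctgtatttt
Replicate 2, TRBV15 with TRBJ1-1, 0 added bases: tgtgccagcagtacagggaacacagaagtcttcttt
Replicate 3, TRBV13-1 with TRBJ2-2, 0 added bases: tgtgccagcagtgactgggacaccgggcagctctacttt
Replicate 1, TRBV31 with TRBJ2-5, 14 added bases: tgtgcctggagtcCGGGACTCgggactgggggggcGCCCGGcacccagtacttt
Replicate 2, TRBV10 with TRBJ1-1, 13 added bases: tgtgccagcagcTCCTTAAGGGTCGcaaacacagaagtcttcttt
Replicate 3, TRBV13-2 with TRBJ1-2, 13 added bases: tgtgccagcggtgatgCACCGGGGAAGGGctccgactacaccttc

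Replicate 3 stood apart from the others before any comparison. It held 369 cells with 1 TRA and 1 TRB, against 1602 and 2216, and it was the shallowest. The median singleton had 5, 3 and 2 unique molecular identifiers (UMIs) for TRA and 7, 5 and 4 for TRB in replicates 1 to 3, against 6, 4 and 3 for TRA and 8, 7 and 5 for TRB in the cells of larger clones. The TRA rested on 1 UMI in 12.3%, 17.5% and 29.8% of singletons, and the TRB in 7.02%, 6.23% and 11.0%. Depth therefore moved with both library and clone size. With chains of at least 3 UMIs alone, the mean singleton share was 59.6%, and 0 genes, residues or CDR3 measures were called in the comparison with expanded clones below by edgeR or limma (0, 2 and 0 had an unadjusted p under 0.05). Replicates 1 and 2 shared 7 cell barcodes and replicates 2 and 3 shared 3. A single barcode was a singleton in both replicates 2 and 3, and no other singleton barcode was shared.

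Singletons made up 47.1% (95% interval 44.7 to 49.6), 48.6% (46.5 to 50.7) and 76.4% (71.8 to 80.7) of the cells with 1 TRA and 1 TRB. The share was 57.4% ± 16.5 (SD, n = 3), and replicate 3 lay apart from the others, whose intervals overlapped. As a share of clones rather than cells the libraries were closer, at 81.2%, 80.5% and 89.2%. Just outside the limit lay 102, 129 and 25 clones of 2 cells. Good's coverage, 1 minus the singleton share, was 52.9%, 51.4% and 23.6%, and the Chao1 lower estimate of the number of clones was 3693, 5785 and 1840 where 930, 1336 and 316 were seen. The intervals are exact Clopper-Pearson intervals on counts of cells; they leave out any error beyond counting.

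Being alone as a pair did not mean that both chains were alone. The TRB of 86, 151 and 16 singletons (11.4%, 14.0% and 5.67%) was also in another cell of the library, and the TRA of 111, 157 and 21. Neither chain was in another cell for 610, 844 and 252 singletons (80.8%, 78.4% and 89.4%). Of the 253 singletons whose TRB recurred, 59 shared it with other cells of 1 TRA and 1 TRB, 122 with cells that lacked a TRA and 129 with cells that carried an extra chain, some with more than 1 kind. Cell Ranger had placed 64, 92 and 21 singletons in clonotypes of more than 1 cell. In 25, 24 and 2 singletons both nucleotide CDR3s were those of another paired cell under a different V or J name, so that the naming alone set them apart. With the joined name TRBV12-2+TRBV13-2 counted as TRBV13-2, 730, 1053 and 280 singletons remained, so most of these cases lay between those names. The TRB was also found on barcodes that Cell Ranger did not call as cells for 27.5%, 15.5% and 26.6% of singletons.

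β chain V genes were used unevenly and much alike in the 3 libraries. There were 22 TRBV names, 21 of them genes on chromosome 6 and the other a joined name, and the 8 most used held 65.6% of singletons. The leading name was TRBV12-2+TRBV13-2, at 10.1%, 11.1% and 11.7% (10.9% ± 0.82, SD, n = 3). This joined name was kept as deposited, and what it stands for is not given in the sources used here. TRBV5 (GRCm38 chromosome 6, 41062332 to 41062803) had 12.1%, 9.76% and 8.16%, and its mean of 9.99% ± 1.96 lay below that of the leading name by less than its own spread. TRBV19 differed least between libraries, at 8.87%, 8.92% and 8.87% (8.89% ± 0.03), on counts of 67, 96 and 25 singletons. TRBV13-1 followed at 8.04% ± 1.44, TRBV13-3 at 7.82% ± 1.95, TRBV1 at 7.32% ± 0.65, TRBV16 at 7.17% ± 0.58 and TRBV13-2 at 5.43% ± 0.82. None of these neighbours in the order was separated by more than the larger of their spreads except TRBV16 from TRBV13-2. The TRBV13 genes with the joined name made up 32.2% ± 2.17 of singletons, and how the joined name is shared out sets the rank of TRBV13-2, which came to 14.6% ± 2.74 when all joined names were counted as TRBV13-2.

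**Figure D1:**
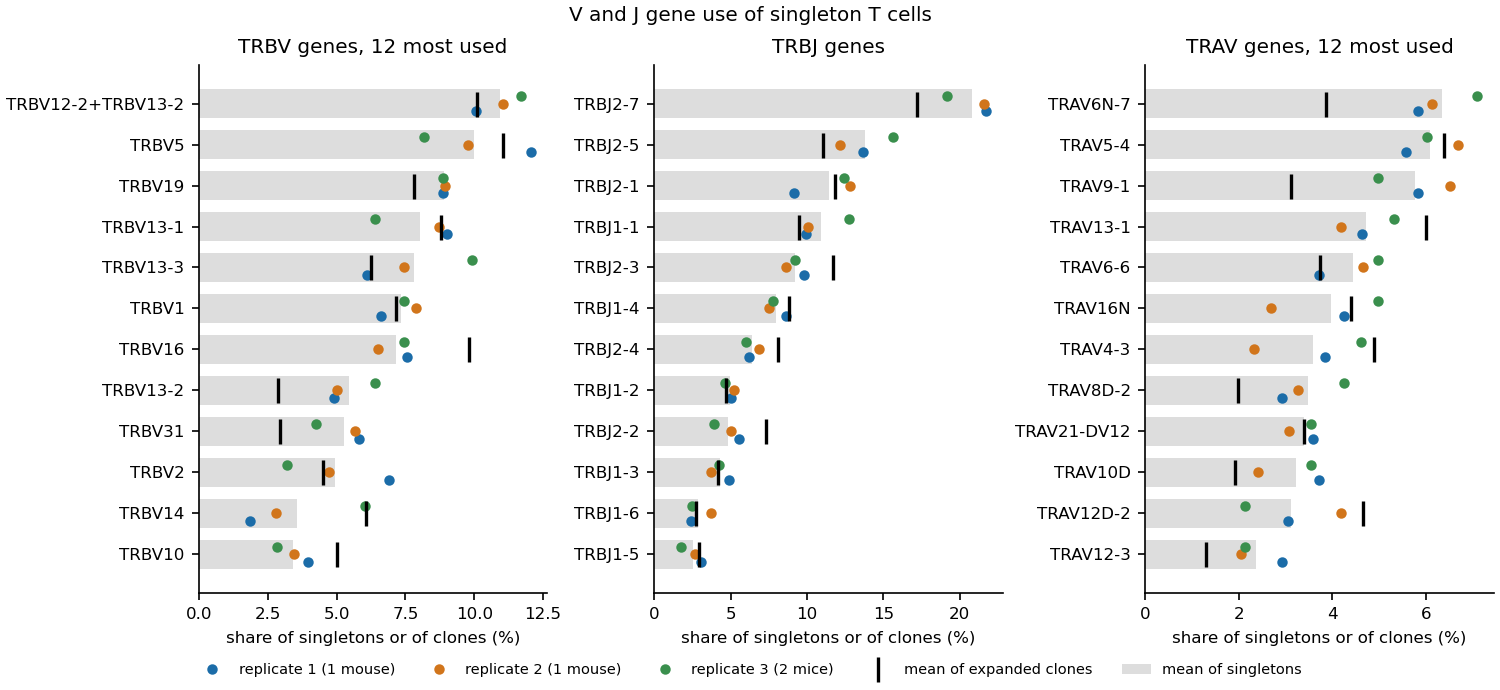
Share of singletons (%) for the 12 most used TRBV genes, all 12 TRBJ genes and the 12 most used TRAV genes. Bars are means of 3 libraries, coloured points are the libraries, and black ticks are the mean share among expanded clones of 2 or more cells, each clone counted once. TRBJ2-7 stands above all other J genes in each library, while the TRBV and TRAV genes form gradual orders in which points of most neighbouring genes overlap, those of TRBV16 and TRBV13-2 being apart.

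J genes of the β chain lie in 2 clusters on chromosome 6, each behind its own D gene and before its own constant gene. TRBJ2-7 (GRCm38 chromosome 6, 41543810 to 41543856), the last J gene of the second cluster, was in 21.7%, 21.6% and 19.1% of singletons and led the J genes in every library (20.8% ± 1.44). TRBJ2-5 had 13.8% ± 1.72, TRBJ2-1 11.5% ± 2.02, TRBJ1-1 10.9% ± 1.61, TRBJ2-3 9.22% ± 0.58 and TRBJ1-4 7.98% ± 0.56. The remaining J genes were TRBJ2-4 with 6.38%, TRBJ1-2 with 4.95%, TRBJ2-2 with 4.83%, TRBJ1-3 with 4.29%, TRBJ1-6 with 2.86% and TRBJ1-5 with 2.5%. The second cluster as a whole held 66.1%, 67.1% and 66.3% of singletons. Where a constant gene was assembled, in 2094 singletons, it belonged to the cluster of the J gene in 100% of them, as the order of the locus requires.

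α chain genes were spread more widely. Singletons used 68 TRAV genes, 57 of them in every library, and 42 TRAJ genes, 40 in every library, all on chromosome 14. The 8 most used TRAV genes held 38.4% of singletons. TRAV6N-7 (GRCm38 chromosome 14, 53318798 to 53319284) was in 5.83%, 6.13% and 7.09%, TRAV5-4 in 5.56%, 6.69% and 6.03%, and TRAV9-1 in 5.83%, 6.51% and 4.96%. These leading genes were within each other's spread, and TRAV13-1 (4.71%), TRAV6-6 (4.44%), TRAV16N (3.97%), TRAV4-3 (3.59%) and TRAV8D-2 (3.47%) followed. Part of the TRAV cluster is duplicated in mice, and the copies, named with D or N, can be nearly identical, so that single copies are less certain than families. By family, TRAV6 made up 16.1% ± 0.74 of singletons, TRAV7 10.9% ± 0.25, TRAV9 10.6% ± 0.75 and TRAV5 9.62% ± 1.86.

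No TRAJ gene stood out. TRAJ48 had the highest mean, 4.95% ± 2.23, but owed it to replicate 3 (4.24%, 3.16% and 7.45%). TRAJ40 had 4.92% ± 1.64, TRAJ23 4.75% ± 0.59, TRAJ49 4.09% ± 1.40 and TRAJ31 3.89% ± 0.62. Across genes, the shares of 2 libraries correlated at Pearson's r of 0.83 to 0.96 for TRBV, 0.95 to 0.96 for TRBJ, 0.87 to 0.92 for TRAV and 0.68 to 0.81 for TRAJ. The points are genes of the same strain and assay and not independent replicates, so these are descriptions of how alike the libraries were.

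Gene use of singletons was then compared with that of the 469 expanded clones (175, 260 and 34), each clone counted once. Of 118 V and J genes, 0 (0%) differed at an adjusted p under 0.05 in edgeR's quasi-likelihood test with library as a block. In that test 7 had an unadjusted p under 0.05, and DESeq2 called 0 and had 0 at that level. The lowest p was that of TRBJ2-7, which had 20.8% ± 1.44 of singletons and 17.2% ± 5.54 of expanded clones (log2 difference 0.52, SE 0.20, edgeR adjusted p = 0.77). It was higher among singletons in replicates 1 and 2, where expanded clones had 13.1% and 15%, and lower in replicate 3, where they had 23.5% of 34 clones.

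Other genes with a low unadjusted p were TRAV12-3, TRAV13-4-DV7, TRAV14-3, TRAJ44, TRBV14 and TRAJ23. TRAJ23 had 4.24%, 5.39% and 4.61% of singletons and 7.43%, 8.85% and 5.88% of expanded clones, and its adjusted p was 0.77 (log2 difference -0.71, SE 0.36, edgeR). TRAV9-1 had 7.43% of the expanded clones in replicate 1 and 1.92% and 0% in the others, which shows how widely a gene varied among the smaller number of expanded clones. With 34 expanded clones in replicate 3, a count of 0 there allows up to 3 clones.

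Within the α chain, the J gene depended on the V family for TRAV21, the TRAV family nearest to the J genes. TRAJ genes are numbered downward from the V side toward the constant gene. TRAV21-DV12 (GRCm38 chromosome 14, 53875984 to 53876752), its only member here, was in 27, 33 and 10 singletons. The median number of its TRAJ partner was 52, 49 and 56.5 in replicates 1 to 3. A TRAJ gene numbered over 40 was used by 81.4% of TRAV21 singletons, against 34.0% ± 1.92 of all singletons. In counts, 22, 26 and 9 TRAV21 singletons joined such genes where 9.76, 10.9 and 3.26 were expected from the shares of the V family and the J group in each library. All 3 libraries were above expectation, and the pair passed the test (log2 ratio 1.25, SE 0.22, edgeR adjusted p = 0.017). A TRAJ gene numbered up to 20 was joined by 0, 1 and 0 TRAV21 singletons where 5.69, 6.93 and 1.92 were expected, which also passed (log2 ratio -3.86, SE 0.83, edgeR adjusted p = 0.032). These were the 2 calls among 41 pairs of a TRAV family with a TRAJ group (4.88%), and 12 pairs had an unadjusted p under 0.05. The groups divide the same TRAV21 singletons, so an excess in one brings a deficit elsewhere and the 2 calls are not independent results.

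The grouping of TRAJ genes by number was chosen after the single-gene results were seen. With single TRAJ genes, 0 of 15 pairs with at least 10 expected singletons were called (0%), and 0 had an unadjusted p under 0.05 in edgeR. Those pairs were all of TRAV5, TRAV6, TRAV7 or TRAV9. No pair of TRAV21 reached that limit, so the single-gene test could not have called it. The ratio for TRAV21 was 1.25 on the log2 scale without replicate 2 as well, but its adjusted p was then 0.76 (edgeR). No pair of another family passed the test. TRAV8 joined genes over 40 in 60 singletons where 37.0 were expected (edgeR adjusted p = 0.069), and TRAV12 in 33 where 54.9 were expected (0.073 in the same test). TRAV1, the V gene farthest from the J genes, did so in 1 singleton where 10.5 were expected (edgeR adjusted p = 0.066). Of the 31 TRAV1 singletons, 12 used a single J gene, TRAJ33. TRAV5 joined genes up to 20 in 25 singletons where 45.2 were expected (edgeR adjusted p = 0.073).

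**Figure D2:**
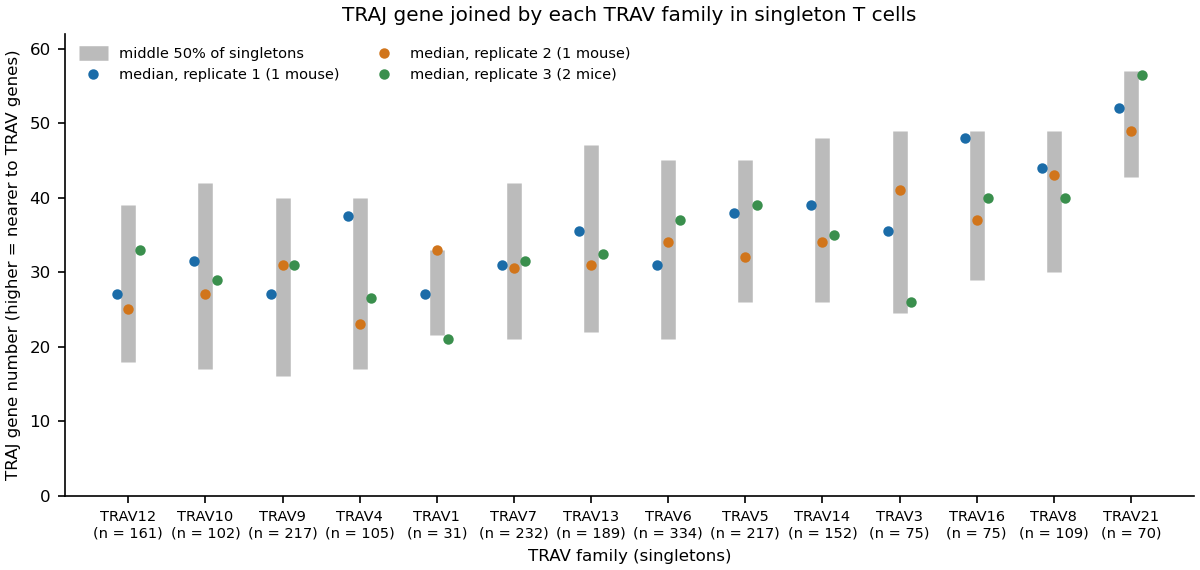
Number of the TRAJ gene joined by TRAV families with at least 31 singletons. The vertical axis is the TRAJ number, which falls toward the constant gene, grey bars span the middle 50% of singletons, points are the medians of the 3 libraries, and n is the number of singletons. TRAV21 lies highest with library medians of 49 to 56.5, and TRAV12 lowest by the median over all libraries, at 27.

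Within the β chain, 72 pairs of a TRBV and a TRBJ gene had at least 10 expected singletons, 0 of them (0%) were called, and 5 had an unadjusted p under 0.05 in edgeR. TRBV19 with TRBJ2-7 came closest. It was in 24, 32 and 7 singletons where 14.6, 20.7 and 4.79 were expected, above expectation in every library (log2 ratio 0.65, SE 0.20, edgeR adjusted p = 0.076). With a limit of 5 expected singletons, 1 of 141 pairs (0.709%) was called and 16 had an unadjusted p under 0.05. This was TRBV2 with TRBJ1-2, which was in 7, 7 and 3 singletons where 2.62, 2.65 and 0.415 were expected (log2 ratio 1.58, SE 0.41, edgeR adjusted p = 0.023). It was above expectation in all libraries, but it rests on 17 singletons, and it was named after its value was seen.

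Pairing between the chains was broad. Of the TRAV and TRBV gene pairs that the genes of a library allow, singletons showed 442 of 1364 (32.4%), 537 of 1452 (37.0%) and 222 of 1260 (17.6%). In all, 740 gene pairs were seen, 293 of them in a single cell and 98 in every library. The most frequent were TRAV5-4 with TRBV5 in 20 singletons, where 13.5 were expected, and TRAV6N-7 with TRBV19 in 20, where 11.6 were expected. TRAV6N-7 with TRBV19 was above expectation in every library (5, 10 and 5 singletons against 3.90, 5.89 and 1.77), whereas TRAV5-4 with TRBV5 was not (7, 12 and 1 against 5.06, 7.03 and 1.39).

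With TRAV genes joined into families, 72 pairs could be tested, 0 of them (0%) were called, and 2 had an unadjusted p under 0.05 in edgeR. TRAV4 with TRBV12-2+TRBV13-2 was in 22 singletons where 11.3 were expected, 9, 9 and 4 by library (log2 ratio 0.96, SE 0.34, edgeR adjusted p = 0.76). TRAV6 with TRBV13-3 was in 37 where 24.4 were expected, 12, 18 and 7 by library (log2 ratio 0.60, SE 0.25, edgeR adjusted p = 0.76). Both were above expectation in all libraries. CDR3 lengths of the 2 chains of a cell were not related to a visible degree, with Pearson's r across cells of 0.034, -0.013 and -0.0047, given as a description of cells that share a library.

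**Figure D3:**
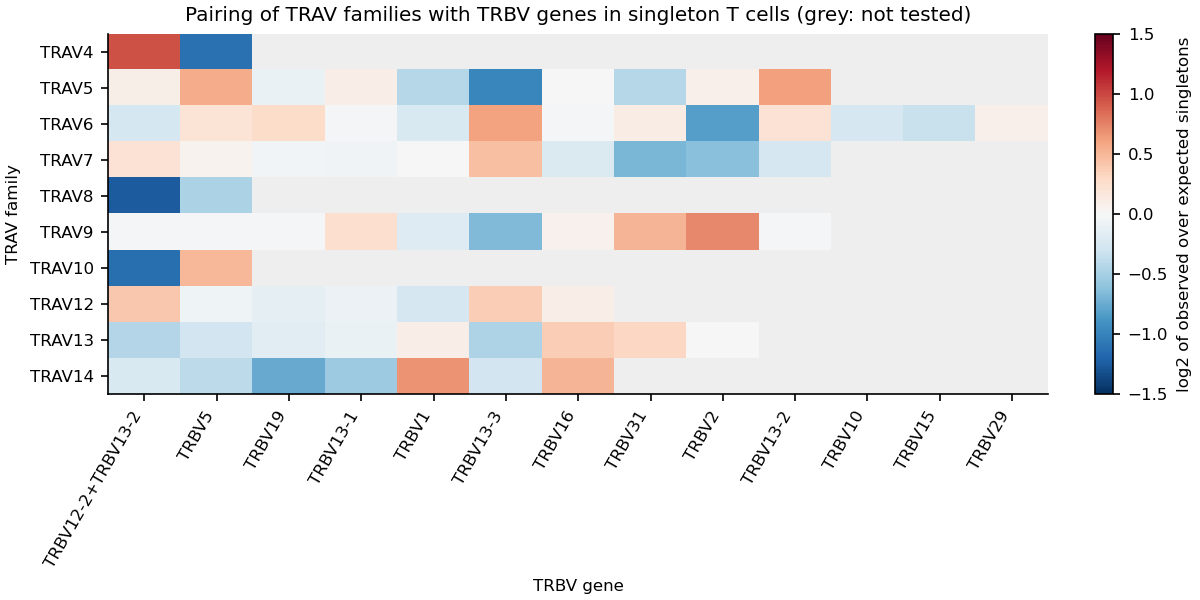
Pairing of TRAV families (rows) with TRBV genes (columns) in singletons. Colours give log2 of the observed over the expected number, red above and blue below, and grey pairs had under 10 expected singletons and were not tested. The strongest red is TRAV4 with TRBV12-2+TRBV13-2 at 0.96, and no pair passed the test.

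CDR3 length was nearly constant over the libraries. Counted from the conserved cysteine to the last residue of the CDR3, TRA CDR3s had a mean of 13.6, 13.6 and 13.6 residues (13.6 ± 0.03, SD of library means, n = 3; range 8 to 20). TRB CDR3s had a mean of 14.0, 13.9 and 13.9 residues (13.9 ± 0.05; range 10 to 19). The commonest TRA lengths were 13 residues (28.8%) and 14 residues (28.6%), and the commonest TRB lengths were 14 residues (28.8% ± 3.95) and 15 residues (23.0%). TRB CDR3s of expanded clones had a mean of 14.1, 14.0 and 14.4 residues, above singletons in each library, but the difference did not pass the test (-0.09 SD, SE 0.05, limma adjusted p = 0.37).

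**Figure D4:**
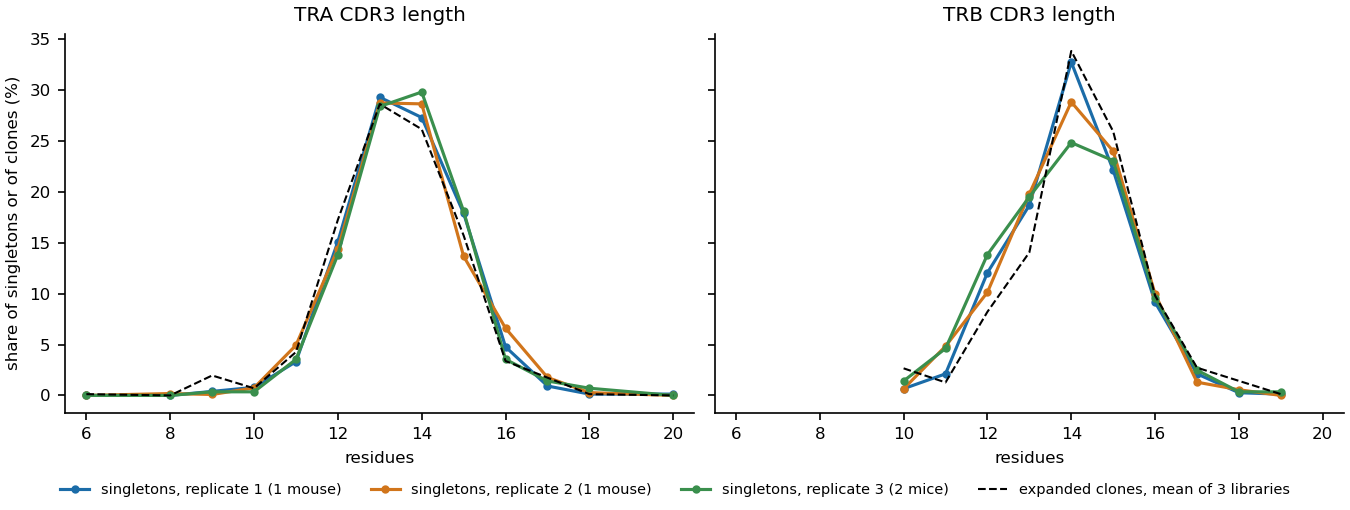
Distribution of CDR3 length in residues for TRA (left) and TRB (right), as a share (%) of the singletons of each library (coloured) and of expanded clones (dashed, mean of 3 libraries). The 3 libraries follow one another, with peaks at 13 and 14 residues for TRA and at 14 residues for TRB.

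The length of a TRB CDR3 went with its gene segments. By J gene the mean ran from 13.1 residues with TRBJ2-7 to 14.7 with TRBJ2-2 and TRBJ2-3, a span of more residues than the SD over libraries of any J gene. The most used J gene was thus also the one with the shortest CDR3s. By V gene, among those with at least 58 singletons, the shortest mean was 12.5 ± 0.65 residues with TRBV20 and the longest 14.3 ± 0.20 with TRBV29, both named after their values were seen. All 156 TRBV1 singletons carried a second cysteine in the TRB CDR3, which the TRBV1 segment encodes, and only 2 other singletons did.

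The make-up of the chains differed. Over the residues between the outer 3 at each end, both chains were richest in glycine (18.6% in TRA and 18.7% in TRB). Asparagine made up 14.3% of middle residues in TRA and 5.60% in TRB, and lysine 8.91% and 0.56%. Acidic residues had the opposite order, with glutamate at 9.32% and aspartate at 8.55% in TRB. Together, acidic residues made up 6.77% ± 0.78 of middle TRA residues and 17.9% ± 0.38 of middle TRB residues, and basic residues 15.4% ± 0.18 and 6.81% ± 0.48. The library ranges did not overlap for either class.

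The mean net charge of the CDR3, lysine and arginine against aspartate and glutamate, was 0.75, 0.73 and 0.65 for TRA and -0.83, -0.85 and -0.95 for TRB. TRA CDR3s were net positive in 60.4% ± 2.25 of singletons and TRB CDR3s net negative in 66.1% ± 1.99. In 41.1% ± 0.86 of singletons the chains carried opposite net charges, against 34.9%, 39.2% and 23.5% of expanded clones, the last being 8 of 34 clones. This difference was not tested. No share expected from independent pairing of the chains was computed, so these values do not say whether the chains match in charge. The mean TRB charge varied with the J gene, from -1.31 with TRBJ2-1 to -0.07 with TRBJ1-4.

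**Figure D5:**
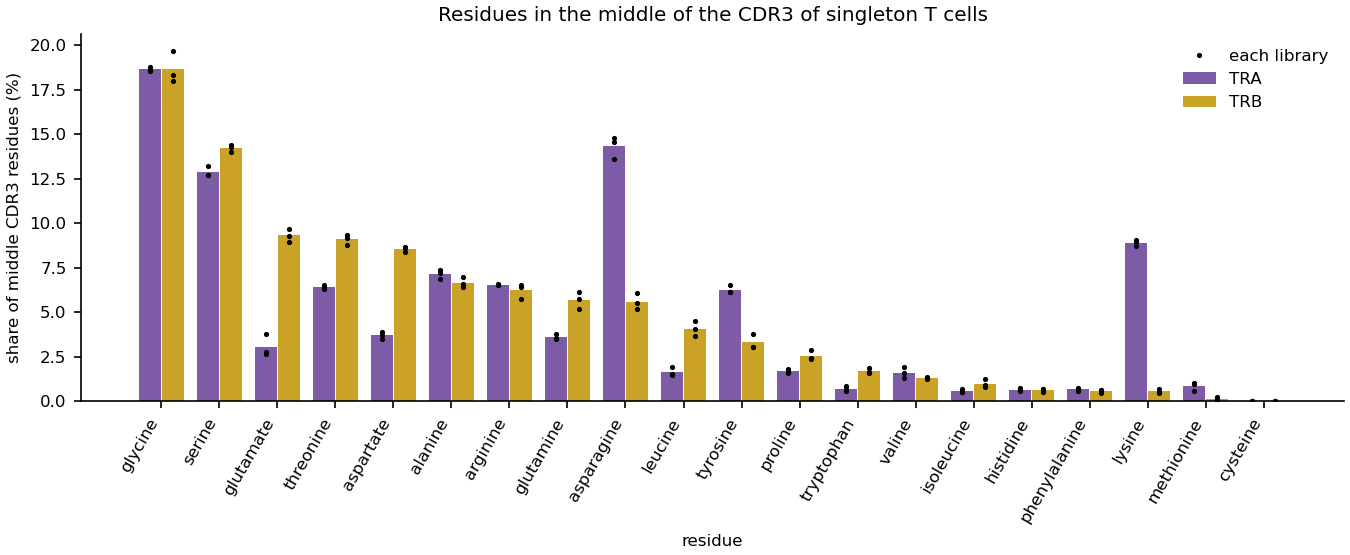
Share (%) of each amino acid among the middle CDR3 residues of singletons, with the outer 3 residues at each end left out. Bars are means of 3 libraries for TRA (purple) and TRB (yellow), and dots are the libraries. Asparagine, lysine and tyrosine stand higher in TRA, and glutamate, threonine and aspartate stand higher in TRB.

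CDR3 make-up was compared between singletons and expanded clones in the same way. Of 40 residue classes, 0 (0%) were called in edgeR, and 1 had an unadjusted p under 0.05. This was threonine in TRA, at 6.41% of middle residues in singletons and 4.51% in expanded clones (log2 difference 0.31, SE 0.11, edgeR adjusted p = 0.95). Of 15 CDR3 measures, 0 (0%) were called in limma with library as a block, and 2 had an unadjusted p under 0.05, both measures of trimming. Singletons had lost 3.25, 3.07 and 3.34 bases from the TRAJ segment and expanded clones 3.51, 3.42 and 3.52, lower in singletons in each library (-0.11 SD, SE 0.03, limma adjusted p = 0.18). Without replicate 3 that difference passed the test (-0.11 SD, limma adjusted p = 0.041). With every cell of an expanded clone counted in place of the clone it was 0.04 SD, the other way (limma adjusted p = 0.88). The TRBV segment had lost 2.63, 2.76 and 2.98 bases in singletons and 2.85, 2.95 and 3.03 in expanded clones (-0.08 SD, SE 0.03, limma adjusted p = 0.25).

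At the joint itself, TRB chains of singletons held 4.16, 4.07 and 4.49 added bases on average (4.24 ± 0.22), and expanded clones 4.30, 4.18 and 4.47. TRA chains held 3.12, 3.08 and 3.09 (3.09 ± 0.02). Where NOD alleles differ from the reference, both values are too high. Stretches of D under 5 bases were also counted as added in TRB, and they enter the share of G or C given next. In the other direction, added bases that match a segment were not counted. The added TRB bases were 60.2%, 60.3% and 64.4% G or C, against 53.0% in the germline part of the same CDR3s, and each library was above its germline value by more than the spread over libraries. No added base was found in 41, 74 and 10 TRBs (5.43%, 6.88% and 3.55%) and in 88, 145 and 34 TRAs (11.7%, 13.5% and 12.1%). Both chains lacked one in 5, 7 and 1 singletons. The 3 TRBs with 0 added bases printed above rested on 28, 41 and 8 UMIs, and those with 14, 13 and 13 on 1, 6 and 1.

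A D segment of at least 5 bases was matched to TRBD1 in 40.0% ± 2.83 of singletons and to TRBD2 in 31.4% ± 2.60, and none was matched in 25% ± 1.10. TRBD2 lies behind the first J cluster and cannot join it, so only joints to the second cluster could hold either D gene. There, TRBD2 was matched in 45.9%, 44.0% and 51.9% of singletons and TRBD1 in 25.9%, 30.7% and 20.9%, with no overlap between the libraries. The remaining singletons matched both genes equally well or neither, and TRBD2 is the longer segment, which gives it more bases to match.

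Every paired receptor of a singleton is distinct in its library because clone size chose the members, so diversity is described for genes and their combinations. The effective number of TRBV genes, the exponential of the Shannon entropy, was 16.1, 16.6 and 16.3 (16.4 ± 0.26), and that of TRBJ genes 10.0 ± 0.20. It was 42.7 ± 1.65 for TRAV and 35.2 ± 1.8 for TRAJ genes. Thinned to the 282 singletons of replicate 3, the libraries held 132, 134 and 135 TRBV-TRBJ combinations, 247, 241 and 244 TRAV-TRAJ combinations and 221, 220 and 222 TRAV-TRBV combinations. At equal numbers the libraries thus differed by few combinations, even though replicate 3 was shallower and held 2 mice. A TRB that had the same V gene, J gene and length as that of another singleton and differed from it in at most 1 residue was found in 47, 72 and 6 singletons (6.23%, 6.69% and 2.13%), a share that rises with the number of singletons compared.

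Receptors were then compared between libraries, which come from different mice. The amino acid TRB (with V and J gene) of 23, 30 and 10 singletons was also in a cell of another library (3.05%, 2.79% and 3.55%), and the amino acid TRA of 57, 56 and 29 (7.55%, 5.20% and 10.3%). Shared chains held fewer added bases. Shared TRBs had a mean of 3.09, 3.33 and 3.6 added bases and the others 4.19, 4.09 and 4.52, lower in all 3 libraries, and shared TRAs had 2.39, 1.91 and 2.41 against 3.18, 3.14 and 3.17. By V gene name, amino acid CDR3 and J gene, 0 TRBs and 6 TRAs were in singletons of all 3 libraries, and with the joined name counted as TRBV13-2 1 TRB was.

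Both chains were shared for 20 singletons (7, 6 and 7), which formed 10 distinct pairs of amino acid CDR3s. Of these, 7 were carried by a single cell in each library that held them, and 3 used TRAV21-DV12. A single pair was in all 3 libraries. It joined TRAV21-DV12 and TRAJ57 to TRBJ2-5 with TRBV13-2 in replicate 1 and the joined name in replicates 2 and 3, and its TRB had a different nucleotide sequence in each library. The sequences are given because they show the same receptor reached through different joints, with capitals as above.
Replicate 1, TRA: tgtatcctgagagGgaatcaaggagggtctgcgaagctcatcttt
Replicate 2, TRA: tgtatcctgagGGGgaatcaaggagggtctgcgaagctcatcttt
Replicate 3, TRA: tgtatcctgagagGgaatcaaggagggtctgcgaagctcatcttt
Replicate 1, TRB: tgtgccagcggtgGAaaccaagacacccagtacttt
Replicate 2, TRB: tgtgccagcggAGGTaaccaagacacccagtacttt
Replicate 3, TRB: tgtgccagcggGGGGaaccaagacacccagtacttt
The TRA was identical in nucleotides in replicates 1 and 3. The 3 cells rested on 6, 8 and 4 TRA UMIs and 2, 7 and 3 TRB UMIs.

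Among the 10 pairs, 5 had no nucleotide CDR3 in common between libraries, as in the pair of TRAV16N and TRAJ18 with TRBV2 and TRBJ1-2 of replicates 1 and 2, which differed at 1 base of TRA and 4 bases of TRB.
Replicate 1, TRA: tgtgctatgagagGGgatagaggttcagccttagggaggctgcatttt
Replicate 2, TRA: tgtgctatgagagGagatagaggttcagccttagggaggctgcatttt
Replicate 1, TRB: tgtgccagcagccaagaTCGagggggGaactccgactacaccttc
Replicate 2, TRB: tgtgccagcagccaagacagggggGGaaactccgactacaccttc
A single pair was identical in both nucleotide CDR3s, that of TRAV14-1 and TRAJ23 with TRBV5 and TRBJ2-7, in replicates 1 and 2. Its TRA had 0 added bases and its TRB had 3.
Replicates 1 and 2, TRA: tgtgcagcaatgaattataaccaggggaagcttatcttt
Replicates 1 and 2, TRB: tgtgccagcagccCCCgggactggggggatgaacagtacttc
The cells had different barcodes and rested on 2 TRA and 6 TRB UMIs in replicate 1 and on 2 and 2 in replicate 2.

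Receptors of the invariant kind were rare. Invariant natural killer T cells, which recognise lipids on CD1d, use TRAV11 with TRAJ18, and mucosal-associated invariant T cells, which recognise vitamin B metabolites on MR1, use TRAV1 with TRAJ33. By these gene pairs, 1, 3 and 1 singletons were iNKT-type and 1, 10 and 1 MAIT-type. All 5 TRAV11 singletons used TRAJ18, and all 5 were paired with TRBV12-2+TRBV13-2 and 5 different TRBs. Among 469 expanded clones, 0 were iNKT-type, which allows up to 0.64%, and 1 was MAIT-type. The iNKT-type TRAs of singletons were reached by 3 nucleotide joints, the first of them in 3 cells of replicates 1 and 2.
Replicates 1 and 2, TRAV11 with TRAJ18: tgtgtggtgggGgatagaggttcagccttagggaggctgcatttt
Replicate 2, TRAV11 with TRAJ18: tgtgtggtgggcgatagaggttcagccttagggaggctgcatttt
Replicate 3, TRAV11 with TRAJ18: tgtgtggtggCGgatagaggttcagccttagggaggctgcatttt
Of the 12 MAIT-type singletons, 10 in all 3 libraries shared a single TRA with 0 added bases.
Replicates 1, 2 and 3, TRAV1 with TRAJ33: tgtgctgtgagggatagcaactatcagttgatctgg
The 12 MAIT-type singletons had 12 different TRBs from 8 TRBV genes. These calls rest on receptor genes, and MAIT-type cells made up 0.13%, 0.93% and 0.35% of singletons in replicates 1 to 3. The TRA of MAIT-type cells rested on 1 to 5 UMIs and that of iNKT-type cells on 1 to 8.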

How the data were processed

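scTCR-Seq of CD45+ sciatic nerve cells was made with the 10X Genomics Chromium platform in 3 libraries of 1 condition. The authors ran Cell Ranger on mm10 (its version is not given in the sources used here), called cells and assembled contigs, and per the file headers deposited for each contig the counts of UMIs and reads, V, J and constant genes and CDR3, and for each clonotype its cells as a count and as a fraction. UMI counts and clonotype identifiers were used here as deposited, and the consensus tables were not used.

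The members and lists were chosen with earlier results of these data known. The rule kept cells with 1 TRA and 1 TRB, so no doublet caller was run. CDR3s were matched to GRCm38 segments for 2106 TRA and 2112 TRB of 2113 singletons, after 17 bases in 15 segments, which at least 80% of at least 10 rearrangements carried in another form, were replaced. The D match needed 5 bases and, for the first J cluster, was limited to TRBD1. The joined name TRBV12-2+TRBV13-2 was matched to the TRBV13-2 segment.

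Clones per library were compared between singletons and clones of at least 2 cells with edgeR's quasi-likelihood test (V and J genes with a mean of at least 3 clones, and residues) and limma (CDR3 measures, in SDs over clones), with library as a block. Gene pairs with at least 10 expected singletons were compared with the product of their margins in edgeR. P-values were two-sided and adjusted by the method of Benjamini-Hochberg within each of these families of tests, at 0.05. Replicate 3 pools 2 mice, so the comparison with expanded clones had libraries and not mice as its units. The spread between libraries was pooled over the genes, residues or measures tested, so no p-value rests on an item's own spread alone. For V and J genes the p-values can rest largely on counts of clones. For gene pairs the variance was not allowed under that of counting, so their p-values can rest on counts of cells alone. Tests were checked on simulated data that held only sampling error, so the check does not cover further spread between libraries. Genes named are the 8 TRBV, 8 TRAV and 5 TRAJ of highest mean share, all TRBJ and any called; other genes and gene pairs, and the TRAV1 and TRAV11 sequences, were named after their values were seen. Alternatives were amino acid clones, at least 3 UMIs per chain, cells whose TRB was in no other cell, the joined name counted as TRBV13-2, cells in place of clones, over 2 cells for expansion, at least 5 expected, TMM scaling, no filter on low counts, no library term, DESeq2, each library left out and, added after seeing the data, TRAJ genes in 3 groups. For a count of 0, the limit given is that of 3 counts. Software was R 4.3.3 (edgeR 4.0.16, limma 3.58.1, DESeq2 1.42.0) and Python 3.11.15 with matplotlib 3.10.9, numpy 2.4.6, scipy 1.17.1 and pandas 2.3.3.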

Additional observations from a re-analysis of the deposited data

Results flagged for a closer look

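Nonproductive contigs, which the selection of cells did not use, were a signal outside the main measurement. Among the 2113 singletons, 458 had a nonproductive TRA contig (215, 198 and 45 by library), 198 a nonproductive TRB contig (73, 100 and 25) and 25 a nonproductive TRD contig (13, 11 and 1). The TRA share was 28.5%, 18.4% and 16.0%, and was highest in the library with the most UMIs per chain. Both alleles of a locus can rearrange in a T cell, and these contigs were not analysed further.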

How the results depend on the processing

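The singleton share, 57.4% in the main analysis, ran from 51.9% to 59.6% over the other definitions of clones and chains and from 47.8% to 62.5% when a library was left out, the low value being without replicate 3. The effective number of TRBV genes, 16.4, became 15.9 with at least 3 UMIs per chain and 14.99 with the joined name counted as TRBV13-2, and 16.2 to 16.5 on leaving out each library. The number of CDR3 measures called, 0, became 1 without replicate 3 and ran from 0 to 1 over the libraries left out, and that of V and J genes, residues, TRAV-TRBV pairs and TRBV-TRBJ pairs was 0 each time. Of the TRAJ groups, TRAV21 with genes over 40 was called without replicate 1 or 3 and not without replicate 2. TRBV-TRBJ pairs called became 1 with at least 5 expected, and TRAV-TRAJ pairs 2 with TRAJ genes in 3 groups. The difference in TRAJ trimming, -0.11 SD, reversed to 0.039 with cells in place of clones, where single large clones weigh most. Of 230 alternative gene shares 208 moved by less than the spread between libraries, and 16 of the 22 that moved more did so with at least 3 UMIs per chain, as did 5 of the 6 CDR3 means that moved. The cause was not tested. No value could be given for single TRAV-TRAJ pairs with at least 3 UMIs or without replicate 1 or 2, where fewer than 5 pairs reached the expected number. No paired analysis was possible because the series has 1 condition, although library was a block in each comparison with expanded clones, and leaving that block out changed no call. A single cell per clone and a few UMIs per chain limit the depth: an error in 1 base would make a new singleton, and 3 libraries limit every test.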
